A study of Homo sapiens with 8 samples.

Results

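The 42 genes described here encode ligands, receptors, signal carriers and targets of the TGF-beta, activin and bone morphogenetic protein (BMP) pathway. They were chosen by symbol, from a list of pathway genes, and the row carrying each symbol was taken from both deposited tables. All 42 were found, each on 1 row of 48405 and on the chromosome that RefSeq gives for the gene. HCC4006 and HCC827 are established human lung adenocarcinoma lines with activating EGFR mutations. Each line was sequenced as a DMSO culture (the solvent control) and as a resistant population that grew routinely in 3 µM gefitinib, an EGFR kinase inhibitor; all were kept in RPMI-1640 with serum. The 4 groups, HCC4006 DMSO, resistant HCC4006, HCC827 DMSO and resistant HCC827, had 2 libraries each, here called A and B after the column names. The labels name no engineered allele in any group and do not say how many independent resistant populations were made. Nothing in them says that A and B were separate cultures, so p-values here measure only the spread between these libraries, which may be technical.

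Ligands of the family bind pairs of receptor kinases at the cell surface. TGF-beta and activin receptors phosphorylate SMAD2 and SMAD3, BMP receptors phosphorylate SMAD1 and SMAD5, and both sets enter the nucleus with SMAD4 to switch target genes. Secreted antagonists, the inhibitory SMADs, the SKI proteins and SMURF ubiquitin ligases hold the signal back. In epithelial tumours the pathway is known for growth arrest and for its part in the epithelial to mesenchymal transition.

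Levels are in FPKM, fragments mapped to a gene per kilobase of its transcript, scaled to library size, a unit per length that lets genes be compared within a table. Changes were taken on the log2(FPKM + 0.5) scale as the resistant mean less the DMSO mean; for low genes this scale gives too small a change. A gene was called at a limma adjusted p below 0.05, with adjustment over all rows of the fit. Between 17406 and 19333 rows and between 35 and 39 of the 42 genes were above 0 in a library, and depth is unknown. Since FPKM tables can list a gene at 0 where the estimate failed, no fold change is given for a group at 0. Epithelial markers were present in all 4 groups: of 7, 6 were measured, and among these KRT7 was at 0 in every library. Their summed level was 9503 and 15844 FPKM in HCC4006 DMSO and 1802 and 1629 in resistant HCC4006, against 10502 to 17492 in the HCC827 libraries. CDH1, the E-cadherin gene, fell from 1518 and 945 FPKM in HCC4006 DMSO to 3.03 and 3.29 in resistant HCC4006. Its log2 change was −8.36 (limma adjusted p = 0.000781). EPCAM, KRT19 and NKX2-1 were also called lower in that line, and KRT8 was lower without a call. Immune markers (5 of 5 measured, PTPRC and CD3E at 0 everywhere) summed to at most 3.90 FPKM in a library. Endothelial markers (3 of 4 measured, CDH5 at 0 everywhere) summed to at most 4.08. In resistant HCC4006 that sum was mostly KDR, at 4.08 and 3.71 FPKM against 0.522 and 1.42 in HCC4006 DMSO. KDR was not called there (limma adjusted p = 0.165), and VWF overlapped. Fibroblast markers (5 of 5 measured, THY1 at 0 everywhere and DCN at 0 in HCC4006) summed to 2.57 and 2.59 FPKM in HCC4006 DMSO and to 22.7 and 27.5 in resistant HCC4006. In HCC827 they summed to at most 1.51. The fibroblast sum in resistant HCC4006 was nearly all PDGFRB, at 21.9 and 26.2 FPKM against 2.57 and 0.764 in HCC4006 DMSO. There COL1A2 went from 0 to 0.811 and 1.29 FPKM, and LUM from 0 and 1.82 to 0. The epithelial markers, PDGFRB and, at a low level, KDR thus moved with the HCC4006 comparison, and their part in the results below was not tested.

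In resistant HCC4006, INHBB, which encodes an activin subunit, fell, and ACVR1 and SMAD5, a receptor and a signal carrier of the BMP branch, were called higher from a DMSO group listed at 0. In resistant HCC827, INHBB and BAMBI, the gene of a receptor-like protein without a kinase, were lower. SKI, a SMAD repressor gene, was called higher there from a DMSO group listed at 0. These were 3 of 40 tested members in HCC4006 (7.5%), where 9.36% of all rows were called, and 3 of 39 in HCC827 (7.69%), where 6.80% were called. The share of members called was near that of all rows in both lines, so the number of calls is not a result about the pathway. Among rows above 0 in every library of the line, limma called 0 of 37 members in HCC4006 (5 at an unadjusted p under 0.05) and 0 of 33 in HCC827 (also 5). The background there was 0.534% and 0.119% of rows. The change differed between the lines for 5 of 40 members (12.5%), against 12.1% of all rows: LTBP3, BAMBI, ACVR1, SMAD5 and SKI.

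Without a test, 16 of 40 members in HCC4006 had both resistant libraries above both DMSO libraries (40.0%), against 26.6% of all rows. Another 6 were lower in both (15.0%), against 26.5% of rows. In HCC827, 10 of 39 were higher in both (25.6%, all rows 24.3%) and 9 lower in both (23.1%, all rows 24.7%). The median change of the tested members was 0.30 in HCC4006, with −0.01 over all rows, and 0.00 in HCC827, with −0.04 over all rows. Over members above 0 in every library of the line these medians were 0.30 and 0.00, with −0.04 and −0.10 over rows of that kind. Without HCC4006 DMSO library B the HCC4006 median of the tested members was 0.07, and with quantile normalization 0.12. In HCC827 that median was −0.31 without DMSO B, −0.28 without resistant A, 0.22 without resistant B and −0.36 with quantile normalization. Quantile normalization moved all rows too. Over members above 0 in every library of the line its medians were 0.08 in HCC4006 and −0.31 in HCC827. Over all rows of that kind they were −0.21 and −0.28.

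**Figure D1:**
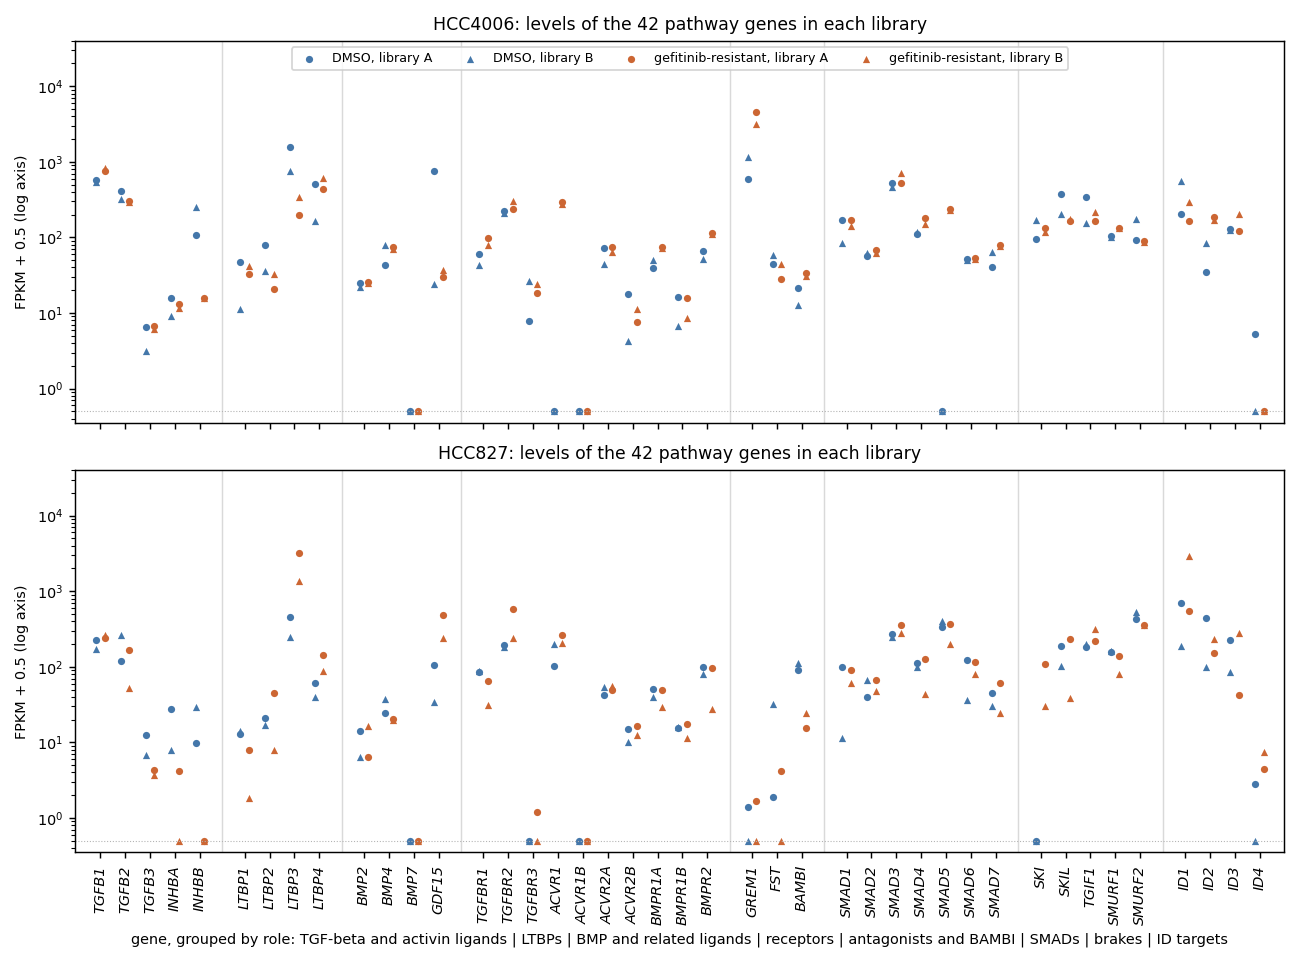
Level of each of the 42 genes in each library, HCC4006 above and HCC827 below, as FPKM + 0.5 on a log axis; blue points are DMSO libraries, orange points gefitinib-resistant ones, circles library A and triangles library B. Points on the dotted line are listed at 0, as ACVR1 and SMAD5 are in HCC4006 DMSO and SKI is in HCC827 DMSO.

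Among the ligands, INHBB was the only member of the 42 called lower in both lines. It encodes the beta B subunit of activin B and inhibin B. The gene (hg19 chromosome 2, 121103718 to 121109384) measured 106 and 251 FPKM in HCC4006 DMSO and 15.4 in each resistant library. The log2 change there was −3.36 (SE 0.49, adjusted p = 0.0367, n = 2 per group). Its HCC827 levels were 9.30 and 29.2 FPKM in DMSO and 0 in both resistant libraries (adjusted p = 0.0232). The groups did not overlap in either line, and the row shares its locus with no other row. The change was not shown to differ between the lines (adjusted p = 0.301). In HCC4006 the adjusted p was 0.44 or 0.452 when resistant library A or B was left out and 0.074 over rows above 0, and in HCC827 the call was lost when any one library was left out (0.0609 to 0.248) and with a pseudocount of 5 (0.0782). With a pseudocount of 0.1 the difference between the lines was called (0.0481).

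The 250 bases before the RefSeq start of INHBB (GRCh38.p14, chr2:120345886-120346135, plus strand) are shown because INHBB was the member called lower in both lines. Capitals mark 2 motifs that SMAD proteins are known to bind, CAGAC (or GTCTG on the other strand) and the palindrome GGCGCC. No match overlaps another in the windows printed here.
INHBB: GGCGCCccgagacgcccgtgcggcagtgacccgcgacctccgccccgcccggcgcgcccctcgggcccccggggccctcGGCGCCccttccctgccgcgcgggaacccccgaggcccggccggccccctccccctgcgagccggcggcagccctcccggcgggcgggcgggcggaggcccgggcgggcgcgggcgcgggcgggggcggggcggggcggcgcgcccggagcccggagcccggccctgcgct
The window held GGCGCC 2 times and CAGAC 0 times, at 89.6% G and C. Of 35116 RefSeq windows of this length, 38.0% held CAGAC on either strand and 16.4% held GGCGCC, and their median G and C content was 58%. Of the 42 members, 39 matched the promoter table with 77 windows, of which 42.9% and 22.1% held the motifs. A match is a description of letters, not evidence of binding.

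The other activin subunit gene, INHBA, measured 15.4 and 8.76 FPKM in HCC4006 DMSO and 12.6 and 11.0 in resistant HCC4006. The groups overlapped there, with a log2 fold change of 0.01 (SE 0.37). INHBA in HCC827 measured 27.1 and 7.47 FPKM in DMSO and 3.63 and 0 in the resistant libraries, lower in both without being called (adjusted p = 0.267).

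TGFB1, the most abundant of the TGF-beta ligand genes in resistant cells of both lines, measured 578 and 542 FPKM in HCC4006 DMSO and 753 and 829 in resistant HCC4006. In HCC827 it measured 223 and 169 FPKM in DMSO and 238 and 264 in resistant cells. It was higher in both resistant libraries of each line, by 0.50 (SE 0.18, adjusted p = 0.237) and 0.37 (SE 0.30, adjusted p = 0.56), and passed the test in neither. TGFB2 measured 412 and 319 FPKM against 305 and 298 in HCC4006. In HCC827 its libraries spread from 117 and 264 FPKM in DMSO to 168 and 51.3 in resistant cells and overlapped. TGFB3 was low throughout, between 2.66 and 12.0 FPKM. In HCC827 it was lower in both resistant libraries (log2 fold change −1.20, SE 0.51, adjusted p = 0.322).

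The latent TGF-beta binding proteins are matrix proteins, and most of them bind the inactive, latent form of TGF-beta. The gene LTBP3 went opposite ways in the lines. LTBP3 (hg19 chromosome 11, 65306275 to 65326401) measured 1585 and 750.2 FPKM in HCC4006 DMSO and 196 and 344 in resistant HCC4006. Its HCC827 levels were 449 and 251 FPKM in DMSO and 3214 and 1358 in resistant cells. The groups did not overlap in either line. The log2 fold changes were −2.07 (SE 0.52, adjusted p = 0.122) and 2.64 (SE 0.56, adjusted p = 0.0836), neither of them called. The difference between them, 4.70 (SE 0.85, adjusted p = 0.0173), was called, also over rows above 0 in all 8 libraries (adjusted p = 0.0355), where 1.45% of rows were called and 2 of 31 members, LTBP3 and BAMBI. The call of the difference was lost without HCC4006 DMSO A (adjusted p = 0.063), resistant HCC4006 A (0.112) or B (0.0707), HCC827 DMSO B (0.0805) or resistant HCC827 A (0.0592). In HCC827 alone LTBP3 was called with libraries centred on their median (adjusted p = 0.0369).

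The other binding protein genes passed no test. LTBP4 was higher in both resistant HCC827 libraries, at 142 and 88.5 FPKM against 60.0 and 39.0 (log2 fold change 1.20, SE 0.41, adjusted p = 0.232). Its HCC4006 libraries overlapped, at 503 and 163 FPKM in DMSO and 431 and 617 in resistant cells. LTBP1 was lower in both resistant HCC827 libraries, at 7.52 and 1.33 FPKM against 12.5 and 13.7 (−1.83, SE 0.81). LTBP1 in HCC4006 overlapped, between 10.9 and 46.2. LTBP2 was lower in both resistant HCC4006 libraries, at 20.2 and 32.4 FPKM against 79.3 and 35.4 (−1.04, SE 0.52), and overlapped in HCC827, between 7.52 and 44.3. LTBP3 was thus the member of the group with the largest change in each line.

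Of the BMP ligand genes, BMP2 and BMP4 passed no test. BMP2 lay between 21.4 and 24.9 FPKM in HCC4006 and between 5.82 and 16.1 in HCC827, where its groups overlapped. BMP4 lay between 42.6 and 79.6 FPKM in HCC4006. In HCC827 it was lower in both resistant libraries, at 20.1 and 19.4 FPKM against 24.3 and 36.6 (log2 fold change −0.58, SE 0.37). BMP7 was listed at 0 in all 8 libraries, as was the other row on its locus.

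GDF15, a distant family member known as a stress-induced cytokine, measured 756 and 23.5 FPKM in the HCC4006 DMSO libraries and 29.2 and 36.6 in resistant HCC4006. Library A alone was high, and the log2 fold change of −2.02 (SE 1.83, adjusted p = 0.557) became 0.47 without it. Without library B it was −4.51 (adjusted p = 0.0285). In HCC827 GDF15 measured 104 and 33.4 FPKM in DMSO and 488 and 240.4 in resistant cells, with no overlap (2.53, SE 0.69, adjusted p = 0.153). Its row shares the locus with 7 other rows.

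**Figure D2:**
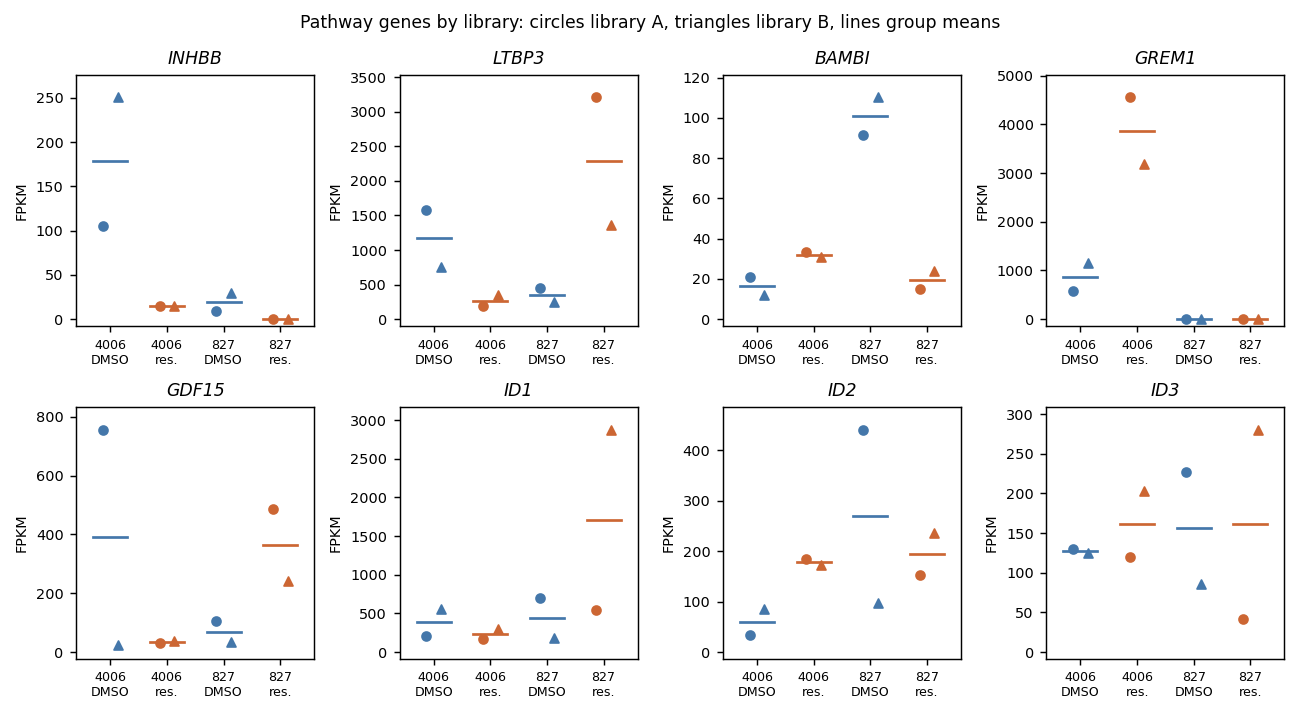
FPKM of 8 pathway genes in each library; blue marks are DMSO and orange marks gefitinib-resistant libraries, circles library A, triangles library B, and horizontal lines the mean of 2 libraries. INHBB is lower in both resistant cultures, LTBP3 and BAMBI go opposite ways in the lines, GREM1 is near 0 in HCC827, and ID1, ID2 and ID3 spread widely within the HCC827 groups.

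Of the 10 receptor genes, 8 in each line were above 0 in all libraries of that line, and none of these was called there. In HCC4006 all 8 had positive changes, between 0.07 and 0.96, with a median of 0.43. With quantile normalization, which moved the median of all such rows from −0.04 to −0.21, 6 of the 8 were positive, with a median of 0.25. In HCC827, 4 of 8 were positive as deposited (median −0.01), and 2 of 8 with quantile normalization, where the median of all rows was −0.28.

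BMPR2, the type II receptor gene of the BMP branch, measured 64.9 and 50.7 FPKM in HCC4006 DMSO and 114 and 109 in resistant HCC4006. The change of 0.96 on the log2 scale (SE 0.23, adjusted p = 0.109) was not called. BMPR2 in HCC827 measured 98.2 and 80.5 FPKM in DMSO and 95.5 and 27.2 in resistant cells, which overlapped. TGFBR1, the type I TGF-beta receptor gene, measured 59.3 and 42.3 FPKM against 98.0 and 78.0 in HCC4006 (0.80, SE 0.28). In HCC827 it measured 84.5 and 87.7 against 65.1 and 30.5 (−0.94, SE 0.45). TGFBR1 was thus higher in both resistant libraries of one line and lower in both of the other, and the difference between the changes was −1.74 (SE 0.57, adjusted p = 0.119). Without resistant HCC827 library A that difference was called, as were those of BMPR2, SMAD4 and SMURF1, and the number of members called rose from 5 to 8, although LTBP3 was then not called.

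TGFBR2, the type II TGF-beta receptor gene, measured 225 and 213 FPKM in HCC4006 DMSO and 240.1 and 305 in resistant HCC4006. Its HCC827 levels were 196 and 183 against 588 and 240.1, and both lines' groups stood apart without a call (adjusted p = 0.499 and 0.398). BMPR1A measured 39.5 and 49.1 FPKM against 73.1 and 72.5 in HCC4006 (0.72, SE 0.22, adjusted p = 0.177) and overlapped in HCC827, between 28.7 and 50.1. BMPR1B, ACVR2A and ACVR2B overlapped in both lines. They lay between 6.14 and 16.9, 41.3 and 73.2, and 3.81 and 17.6 FPKM over the 8 libraries. TGFBR3, the gene of the co-receptor betaglycan, measured 7.36 to 26.2 FPKM in HCC4006 and was listed at 0 in HCC827 but for 0.688 in resistant library A.

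ACVR1, a type I receptor gene of the BMP branch (hg19 chromosome 2, 158592957 to 158732374), was listed at 0 in both HCC4006 DMSO libraries and at 296 and 279 FPKM in resistant HCC4006 (adjusted p = 0.000483). ACVR1 in HCC827 measured 102 and 197 FPKM in DMSO and 264 and 205 in resistant cells (log2 fold change 0.71, SE 0.42, adjusted p = 0.464). It was called in HCC4006 without each of the 4 libraries in turn, but a group at 0 has no spread between its libraries. Whether the 0 is a failed estimate was not tested. The activin receptor gene ACVR1B was listed at 0 in all 8 libraries on a row of 568 kb, on which the 17 other rows were at 0 in every library too, KRT7 among them.

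**Figure D3:**
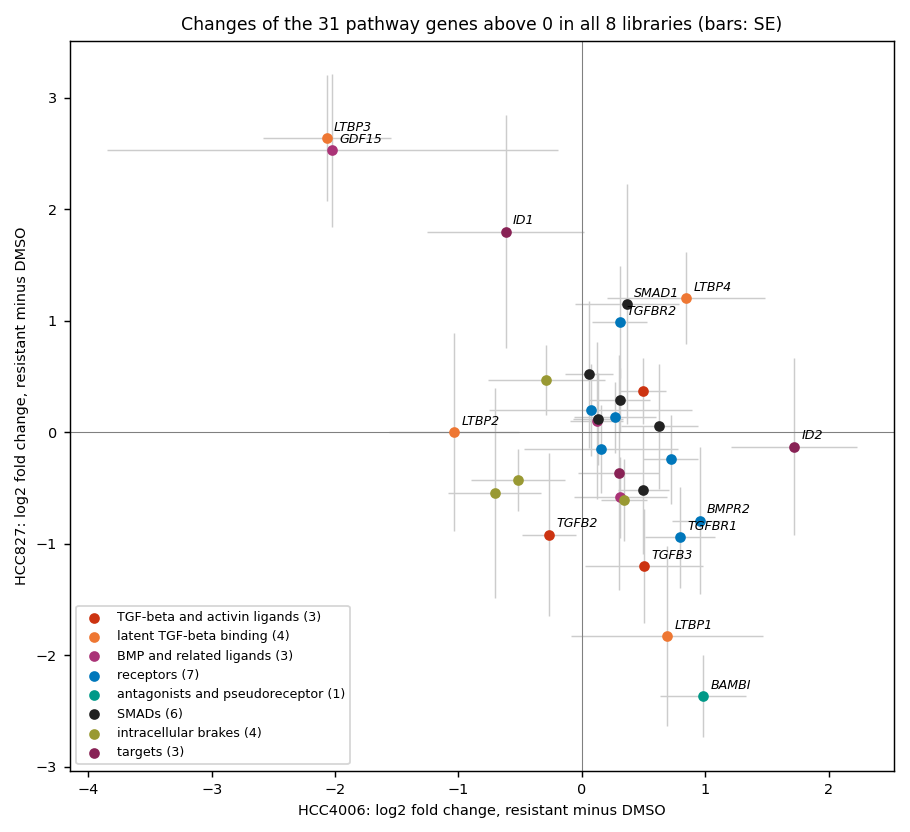
Log2 fold change of the 31 members above 0 in all 8 libraries, HCC4006 on the horizontal and HCC827 on the vertical axis; bars are SE and colours mark the role of the gene. LTBP3 lies at −2.07 and 2.64 and BAMBI at 0.99 and −2.37, the members of this plot whose change was called different between the lines.

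BAMBI encodes a pseudoreceptor, a receptor-like protein without a kinase, and is itself a known target of the pathway. The gene (hg19 chromosome 10, 28966270 to 28971868) measured 20.9 and 12.2 FPKM in HCC4006 DMSO and 33.4 and 30.8 in resistant HCC4006. In HCC827 it measured 91.5 and 111 FPKM in DMSO and 15.2 and 24.1 in resistant cells. The groups did not overlap in either line, and the directions were opposite. The log2 fold change was 0.99 (SE 0.35, adjusted p = 0.22) in HCC4006 and −2.37 (SE 0.37, adjusted p = 0.0315) in HCC827. The difference of −3.35 (SE 0.52, adjusted p = 0.00908) was called, also over rows above 0 (adjusted p = 0.0399). The HCC827 call was lost without any one library (0.119 to 0.352) and over rows above 0 (0.115), and that of the difference without resistant HCC4006 A (0.0646) or B (0.0585).

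The 250 bases before the RefSeq start of BAMBI (GRCh38.p14, chr10:28677271-28677520, plus strand) are shown because its level turned opposite ways in the lines. Capitals mark the same motifs as for INHBB.
BAMBI: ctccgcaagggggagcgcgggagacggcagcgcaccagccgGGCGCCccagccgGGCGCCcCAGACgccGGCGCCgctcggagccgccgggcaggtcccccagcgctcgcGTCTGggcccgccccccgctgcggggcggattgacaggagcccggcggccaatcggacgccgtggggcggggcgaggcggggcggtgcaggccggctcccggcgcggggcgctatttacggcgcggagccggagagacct
It held CAGAC or its complement 2 times and GGCGCC 3 times, at 81.2% G and C.

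GREM1, which encodes the secreted BMP antagonist gremlin, was the most abundant of the 42 genes in resistant HCC4006. It (hg19 chromosome 15, 33010174 to 33026870) measured 588 and 1149 FPKM in HCC4006 DMSO and 4565 and 3180.4 in resistant HCC4006. The groups stood apart, but the log2 change of 2.21 (SE 0.44, adjusted p = 0.0728) did not pass the test. In HCC827 it was listed at 0.885 and 0 FPKM in DMSO and 1.17 and 0 in resistant cells. FST, the gene of the activin-binding protein follistatin, measured 44.2 and 57.3 FPKM against 27.6 and 44.7 in HCC4006. Its HCC827 levels were 1.41 and 31.7 against 3.65 and 0, a spread within DMSO wider than the distance between the groups.

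Of the SMAD genes, none that was above 0 in every library of a line was called in that line. SMAD3 measured 523 and 465 FPKM in HCC4006 DMSO and 521 and 714 in resistant HCC4006, and 269 and 249.8 against 358 and 281 in HCC827. Its log2 fold changes were 0.31 (95% interval −0.40 to 1.01) and 0.29 (−0.47 to 1.05). SMAD2 lay between 56.1 and 66.8 FPKM in HCC4006 and between 39.4 and 67.1 in HCC827, with 0.13 (−0.44 to 0.70) and 0.12 (−0.98 to 1.21). These intervals leave changes of 2-fold open in HCC827 for both genes and in HCC4006 for SMAD3. SMAD4, the shared partner, measured 112 and 119 FPKM against 177 and 150.1 in HCC4006 (0.50, SE 0.20, adjusted p = 0.274). In HCC827 its libraries overlapped, at 113 and 98.7 against 125 and 43.5.

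On the BMP side, SMAD1 measured 170.1 and 84.4 FPKM against 169.6 and 141 in HCC4006 and 97.9 and 11.1 against 90.6 and 60.9 in HCC827. Both comparisons overlapped, and the HCC827 value of 1.15 (SE 1.08) became −0.40 without DMSO library B. SMAD5 (hg19 chromosome 5, 135465195 to 135524435) was listed at 0 in both HCC4006 DMSO libraries and at 239 and 234 FPKM in resistant HCC4006 (adjusted p = 0.000489). SMAD5 in HCC827 measured 335 and 401 FPKM against 368 and 198. The other row on the SMAD5 locus, SMAD5OS, was at 0 in every library. The call in HCC4006 held without each library in turn, with the same limit as for ACVR1.

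The inhibitory SMAD6 lay between 49.3 and 52.7 FPKM in all 4 HCC4006 libraries and between 36.1 and 122 in HCC827. SMAD7 measured 39.7 and 64.2 FPKM against 79.9 and 76.9 in HCC4006 (0.63, SE 0.31, adjusted p = 0.352), and overlapped in HCC827, between 23.9 and 60.4. Of the 6 SMAD genes above 0 in every HCC4006 library all had positive changes, 4 of 6 with quantile normalization, and in HCC827 5 of 7 (4 of 7 with quantile normalization).

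Among the intracellular brakes, SKI (hg19 chromosome 1, 1981908 to 2241558) was listed at 0 in both HCC827 DMSO libraries and at 108 and 29.7 FPKM in resistant HCC827 (adjusted p = 0.00871). In HCC4006 it measured 93.8 and 169.8 FPKM against 131 and 118, with overlap. The 4 other rows on its locus, PRKCZ among them, were also at 0 in HCC827 DMSO and above 0 in some other library. The SKI call was lost without HCC827 DMSO A (adjusted p = 0.197) or B (0.239). SKIL, the gene of the related repressor SnoN, measured 379 and 203 FPKM against 163 and 177 in HCC4006 (−0.71, SE 0.38, adjusted p = 0.379) and overlapped in HCC827, between 38.6 and 235.

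SMURF2, which encodes a ubiquitin ligase for receptors and SMADs, was lower in both resistant libraries of each line without passing the test. It measured 92.1 and 174 FPKM against 89.8 and 86.6 in HCC4006 and 433 and 534 against 360.4 and 355 in HCC827. SMURF1 measured 105 and 102 FPKM against 131 and 131 in HCC4006 and 158 and 161 against 137 and 79.3 in HCC827, again with no call. TGIF1, a repressor gene, was higher in both resistant HCC827 libraries (221 and 313 FPKM against 183 and 198) and overlapped in HCC4006, between 154 and 339.

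The ID genes encode helix-loop-helix proteins without a DNA-binding part and are the best known direct targets of BMP signals. ID2 measured 34.0 and 84.6 FPKM in HCC4006 DMSO and 184 and 172 in resistant HCC4006, a log2 change of 1.72 (SE 0.51) whose adjusted p was 0.164. That change was 2.37 without DMSO library B and 1.07 without DMSO library A. Without resistant library A or B it was 1.67 or 1.77. ID1 measured 205 and 563 FPKM against 166 and 297 in HCC4006, and ID3 129 and 125 against 120.4 and 203, both with overlap. ID4 was at 4.70 FPKM in HCC4006 DMSO A and at 0 in the other 3 HCC4006 libraries.

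In HCC827 the libraries of one group differed more than the groups. ID1 measured 693 and 187 FPKM in DMSO A and B and 547 and 2879 in resistant A and B. ID2 measured 441 and 97.8 against 153 and 236, and ID3 227 and 85.5 against 41.5 and 280.4. All 3 were higher in A than in B within DMSO and higher in B than in A within the resistant culture. No change was called (adjusted p of 0.451, 0.954 and 0.888). ID4 measured 2.34 and 0 FPKM against 3.98 and 7.07.

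The 250 bases before the RefSeq starts of ID1, ID2 and ID3 are shown because these genes shifted together between the HCC827 libraries. In HCC4006 they did not. From A to B, ID3 went against ID1 and ID2 within DMSO, and ID2 against ID1 and ID3 within the resistant culture. The windows are ID1 (GRCh38.p14, chr20:31605039-31605288, plus strand), ID2 (chr2:8681806-8682055, plus strand) and ID3 (chr1:23559502-23559751, minus strand, printed along the gene). Capitals mark the motifs given for INHBB.
ID1: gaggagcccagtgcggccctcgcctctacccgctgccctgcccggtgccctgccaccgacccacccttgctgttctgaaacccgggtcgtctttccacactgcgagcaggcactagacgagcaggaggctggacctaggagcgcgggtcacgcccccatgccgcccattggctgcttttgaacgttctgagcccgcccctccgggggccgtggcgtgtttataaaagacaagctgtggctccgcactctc
ID2: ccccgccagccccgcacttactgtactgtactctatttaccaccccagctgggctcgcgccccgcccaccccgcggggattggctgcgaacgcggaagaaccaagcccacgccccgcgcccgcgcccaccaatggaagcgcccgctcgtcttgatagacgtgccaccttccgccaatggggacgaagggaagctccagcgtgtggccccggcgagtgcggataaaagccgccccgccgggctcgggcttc
ID3: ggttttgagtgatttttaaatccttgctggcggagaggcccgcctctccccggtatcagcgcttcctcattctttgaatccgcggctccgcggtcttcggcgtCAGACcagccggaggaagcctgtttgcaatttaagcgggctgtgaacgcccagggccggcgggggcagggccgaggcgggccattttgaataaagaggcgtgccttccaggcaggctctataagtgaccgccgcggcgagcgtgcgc
ID1 and ID2 held neither motif, and ID3 held CAGAC 1 time. That says only that these letters are not in these windows.

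The distance between libraries A and B was measured for the members in each group. In resistant HCC827, 26 of the 35 members above 0 in both libraries were higher in A than in B, with a median log2 A minus B of 0.57, against 0.00 over all such rows of at least 0.5 FPKM. The median absolute difference was 0.79 for members and 0.57 for all rows. In resistant HCC4006 these were 0.19 and 0.23, in HCC4006 DMSO 0.86 and 0.59, and in HCC827 DMSO 0.59 and 0.39. Leaving out HCC827 DMSO library A or B left 0 calls among all rows by limma (2768 and 2574 rows at an unadjusted p under 0.05).

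Of 76 further pathway genes on a second list, 75 were found. In HCC4006, 45 were tested, 3 called higher (RGMB, NOG and MSX1) and 2 lower (ITGB6 and FKBP1A), or 11.1%, near the 9.36% of all rows, with a median of −0.02. In HCC827, 42 were tested, 2 called higher (FBN1 and NBL1) and 1 lower (NOG), or 7.14%, near the 6.80% of all rows, with a median of 0.04. These counts are not a result about the list. ITGB6 encodes the integrin beta chain that frees TGF-beta from its latent complex on epithelial cells. It measured 55.7 and 62.6 FPKM in HCC4006 DMSO and 1.52 and 1.47 in resistant HCC4006 (log2 fold change −4.90, SE 0.25, adjusted p = 0.00166). In HCC827 it stayed between 219 and 384 FPKM in all 4 libraries, and the difference of 4.90 between the lines was called (SE 0.54, adjusted p = 0.00195). Both held over rows above 0 (0.0301 and 0.0111), and in HCC4006 the call was lost when resistant library A (0.0554) or B (0.0565) was left out.

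FBN1, the gene of fibrillin-1, on whose microfibrils latent TGF-beta complexes sit, measured 1.16 and 1.79 FPKM in HCC827 DMSO and 15.1 and 12.5 in resistant HCC827 (2.87, SE 0.46, adjusted p = 0.0345). In HCC4006 it was higher in both resistant libraries, at 233 and 331 FPKM against 40.4 and 105 (2.08, SE 0.56, adjusted p = 0.139). The HCC827 call was lost without any one library (0.143 to 0.175), over rows above 0 (0.114) and with quantile normalization (0.0988). RGMB, a BMP co-receptor gene, measured 44.6 and 46.1 FPKM in HCC4006 DMSO and 120.0 and 152 in resistant HCC4006 (1.56, SE 0.22, adjusted p = 0.0348), and was listed at 0 throughout HCC827. MSX1, a BMP target gene, measured 4.22 and 5.11 against 15.2 and 15.8 (1.64, SE 0.27, adjusted p = 0.0472), and was also at 0 throughout HCC827. The RGMB call was lost without any one HCC4006 library (0.0771 to 0.264) and over rows above 0 (0.108). That of MSX1 was lost without any library but DMSO B (0.077 to 0.28), with quantile normalization (0.124), a pseudocount of 5 (0.0548) or no filter (0.055), and over rows above 0 (0.147).

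Of the secreted antagonists, NOG, the noggin gene, was listed at 0 in HCC4006 DMSO and at 6.76 and 5.63 FPKM in resistant HCC4006 (adjusted p = 0.0165). In HCC827 the order was the reverse, with 4.80 and 4.84 FPKM in DMSO and 0 in both resistant libraries (adjusted p = 0.0453). That call was lost without DMSO A (0.0853) or B (0.0609), with a pseudocount of 5 (0.07), a filter at a mean of 2 FPKM (0.0717) or median centring (0.0543). NBL1 was listed at 0 in HCC827 DMSO and at 82.8 and 49.5 FPKM in resistant HCC827 (adjusted p = 0.00169, lost without DMSO A, 0.0864, or B, 0.082). In HCC4006 it measured 228 and 374 against 429 and 415. FKBP1A, the gene of a protein that keeps type I receptors silent, was at 1074 and 2204 FPKM in HCC4006 DMSO and listed at 0 in resistant HCC4006 (adjusted p = 0.000763, lost without resistant A, 0.0875, or B, 0.0882). In HCC827 it lay between 1275 and 1806. The locus of FKBP1A holds 4 rows. For NOG, NBL1 and FKBP1A, whether a group at 0 is a failed estimate was not tested.

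**Figure D4:**
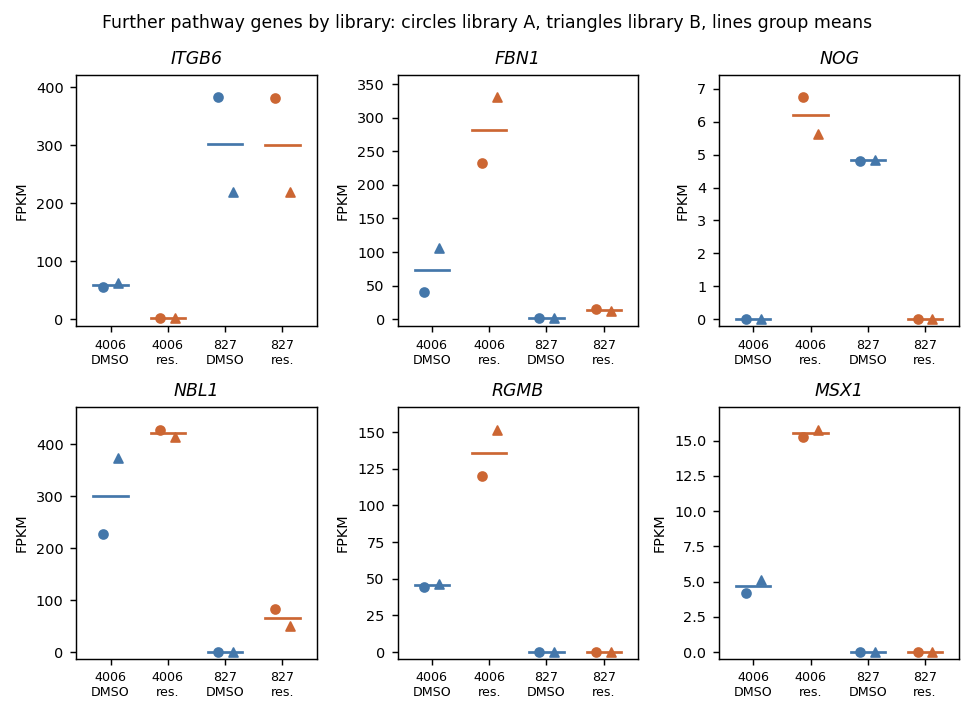
FPKM of 6 further pathway genes in each library; blue marks are DMSO and orange marks gefitinib-resistant libraries, circles library A, triangles library B, and horizontal lines the mean of 2 libraries. ITGB6 is near 0 in resistant HCC4006 alone, FBN1 is higher in both resistant cultures, and NOG is at 0 in HCC4006 DMSO and in resistant HCC827.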

How the data were processed

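Polyadenylated RNA of 8 libraries was analysed from gene-level FPKM, which the authors deposited in 2 tables, 1 per line. Per the submitters' processing notes, the tools were TopHat (version 1.4.1), Cufflinks (version 1.3.0) and Cuffdiff, and the build was hg19; their options and the annotation are not stated in the labels or headers. Whether the tables were normalized together is not stated, so changes were taken within a line and no level was tested across lines. The columns carry letters, which were not tied to the labels' replicate numbers. Depth is unknown and limits the precision of low values; no counting interval can be given.

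Values were fitted across all rows as log2(FPKM + 0.5) with limma 3.58.1 (R 4.3.3), using a variance trend on the mean level, for rows whose mean in the fit reached 0.5 FPKM. Each line was fitted alone, and the lines were compared by the HCC827 change less the HCC4006 change, an interaction term in a fit of all 8 libraries. P-values are two-sided with Benjamini-Hochberg adjustment over all rows. The fits were tested on simulated data with known changes, the same spread for every row and no group at 0. That test does not cover calls that rest on a group at 0. Alternatives were the pseudocount, the filter, rows above 0 alone, 2 other scalings, a replicate block, 1 fit of both lines and leaving out each library.

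Values by library are given for members called, listed at 0 in a group, or among the 8 largest changes of a line. Genes of the second list are named where called. The members and lists were chosen with earlier results of these data known. On the second list, 1 gene was not found and is not analysed here. On shared loci (19 of 42 members) and without strand, overlapping genes cannot be told apart. Some measured genes of the lists are not reported here.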

Additional observations from a re-analysis of the deposited data

Results flagged for a closer look

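The change on resistance differed between the lines, by the interaction test, for 5 members. For LTBP3 the change in HCC827 exceeded that in HCC4006 by 4.70 on the log2 scale, and for BAMBI the difference was −3.35. ACVR1 (adjusted p = 0.000111), SMAD5 (6.06e-05) and SKI (0.00389) each have a group listed at 0, so no size is given.

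On the second list, the change differed between the lines for ITGB6, by 4.90. It also differed for NOG (adjusted p = 0.000172), NBL1 (0.000375), FKBP1A (4.54e-05) and BMP6 (0.0318), each with a group listed at 0. BMP6 was at 0 but for 1.87 and 2.21 FPKM in HCC827 DMSO, and its call was lost with a pseudocount of 5 (0.134) and with median centring (0.0584).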

How the results depend on the processing

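Counts of called members and of all called rows moved by over 1.5 times as follows. Over rows above 0 in every library of the fit, members called fell from 3 to 0 in HCC4006, from 3 to 0 in HCC827 and from 5 to 2 for the difference between the lines. All rows called fell from 1860 to 88, from 1314 to 19 and from 2501 to 212. A group was at 0 in DMSO for 1085 and in resistant cells for 243 of the 1860 rows called in HCC4006, and for 903 and 228 of the 1314 in HCC827; these rows are not in that fit. With the replicate block by column letter, 6 members were called in HCC827 (GDF15, LTBP3 and INHBA were added), 3 in HCC4006 and 5 for the difference. LTBP3 in HCC827 had an adjusted p of 0.00891 with this replicate block. On the second list the replicate block ended the calls of NOG in HCC4006 (0.0733) and HCC827 (0.0726), RGMB (0.0964) and MSX1 (0.161) in HCC4006, and the BMP6 difference (0.126). The labels do not say whether same-letter libraries belong together. Their deviations correlated at −0.08 in HCC4006 and 0.20 in HCC827, over rows above 0, which cannot decide it. Leaving out each library in turn gave 2 to 7 members and 1394 to 3565 rows called in HCC4006, 0 to 1 members and 0 to 1520 rows in HCC827, and 3 to 8 members and 1666 to 3857 rows for the difference. The highest counts came without HCC4006 DMSO library B (7, 3565 and 3857) and, for members of the difference, without resistant HCC827 A. The cause was not tested. Other pseudocounts, filters, quantile normalization, median centring and 1 fit of both lines kept these counts within 1.5 times. Values turned sign for GDF15 in HCC4006 without DMSO A (leave-one-out values −4.51 to 0.47), SMAD1 in HCC827 without DMSO B (−0.40 to 2.69) and the INHBB difference with a pseudocount of 5 (0.90); INHBB is listed at 0 in resistant HCC827, so that value is set by the pseudocount and is no fold change. Depth is unknown, so values near 0 cannot be told from values that are absent.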

Other observations

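The 3 genes below were picked once their values were known and are given as values alone. TGFBI, named for its induction by TGF-beta, was high everywhere, between 6317 and 18092 FPKM, and passed the test in neither line. PMEPA1, a target gene whose product dampens the pathway, measured 2910.4 and 2234 FPKM against 1188 and 984 in HCC4006 (−1.24, SE 0.24, adjusted p = 0.0725). In HCC827 it lay between 52.4 and 191.

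THBS1, the gene of thrombospondin-1, which can activate latent TGF-beta, measured 162 and 1676 FPKM in HCC4006 DMSO and 3379 and 2899 in resistant HCC4006. In HCC827 it measured 293 and 657 FPKM in DMSO and 69.8 and 83.4 in resistant cells. The log2 fold changes were 2.59 (SE 1.24, adjusted p = 0.336) and −2.52 (SE 0.47, adjusted p = 0.0584). The groups did not overlap in either line, and the difference of −5.10 between the lines (SE 1.47, adjusted p = 0.0846) was not called.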
